A study of Saccharomyces cerevisiae with 9 samples.

Results

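The pentose phosphate pathway of budding yeast was followed through 10 genes, chosen by name: ZWF1, SOL3, SOL4, GND1, GND2, RKI1, TKL1, TKL2, TAL1 and NQM1. All 10 were found among 5667 genes, each by its open reading frame and each with 1 probe set. The series holds 9 Affymetrix Yeast 2.0 arrays, 3 per group, of cells in the BY4741 background, a haploid laboratory strain of mating type a. The CR cultures (caloric restriction) grew in YPD with 0.5% glucose, the RM cultures in YPD with 2% glucose and 100 nM rapamycin, which inhibits the TOR kinase complex TORC1, and the NR cultures (non-restricted) in YPD with 2% glucose. All cultures grew at one temperature and were harvested on day 5, and the labels call the replicates biological. The labels give no cell density or viability at harvest.

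The oxidative branch takes glucose 6-phosphate to ribulose 5-phosphate and yields NADPH, the reducing power for biosynthesis and for thioredoxin and glutathione reductases. The non-oxidative branch interconverts sugar phosphates and supplies ribose 5-phosphate for nucleotides and erythrose 4-phosphate for aromatic amino acids. Several steps have a paralogue pair in budding yeast, in which one isozyme carries most of the activity in growing cells (the major form) and the other is a minor form, known mostly from cells that have used up their glucose or are under stress. The pairs, major form first, are SOL3 and SOL4, GND1 and GND2, TKL1 and TKL2, and TAL1 and NQM1. ZWF1 and RKI1 have no such partner.

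Signals are the authors' deposited log2 values per array, and a difference of 1 on that scale is 2-fold. A gene is called changed when its limma p-value, adjusted by Benjamini-Hochberg over all 5667 genes, is under 0.05, and intervals are 95% intervals of that fit. The groups share an estimate of spread in that fit. Leaving out an array of the group not compared therefore changes the adjusted p of a comparison, not its difference. Signals of different probe sets are not compared as amounts of transcript. In bulk RNA scaled between arrays, less transcript per cell and fewer cells that hold it cannot be told apart.

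One array stood apart. NR replicate 3 correlated with the other NR arrays at 0.928 and 0.948 over all genes, whereas the lowest correlation inside CR was 0.997 and inside RM 0.980. The spread also differed by group: the median SD between arrays over all genes was 0.055 in CR, 0.161 in RM and 0.294 in NR. For the 10 members the median SD was 0.056 in CR, 0.218 in RM and 0.536 in NR. Calls of the 10 members that change without NR replicate 3 are therefore given with and without it. For the other genes, values without it are given in part. Of the genes deleted in whole or in part in BY4741, LEU2, MET17 and URA3 read between 0.71 and 2.01 on all 9 arrays, and HIS3 read 5.38 to 6.83. The 5 mating type a genes (MFA1, MFA2, STE2, AGA2 and BAR1) read between 4.64 and 10.75 over the arrays. Of the 4 alpha genes, MF(ALPHA)1 read 2.32 to 6.62 and MF(ALPHA)2 2.75 to 4.42, while STE3 read 4.63 to 6.85 and SAG1 6.69 to 8.28. On the log2 scale the summed signal of the a genes was 9.26 to 9.38 in CR, 10.36 to 10.85 in RM and 9.92 to 12.005 in NR, and that of the alpha genes 8.04 to 8.09 in CR, 8.12 to 8.62 in RM and 7.34 to 8.04 in NR. Of the 5 a genes, 4 were called lower in CR than NR and 4 lower in CR than RM, where 33.6% and 26.4% of all genes were called lower. In RM against NR 0 were called, against 37.0% of all genes. Without NR replicate 3, 3 of the 5 were called higher in RM than NR, against 1018 of all 5667 genes. Of the 4 alpha genes, 2 were called higher and 2 lower in CR over NR, 2 and 0 in RM over NR, and 1 and 1 in CR over RM. Without NR replicate 3 the alpha counts were 1 and 2, 2 and 1, and 1 and 2. The call of STE2 was lost in 6 of the 9 fits that left out 1 array in CR over NR and in 5 of 9 in CR over RM. That of BAR1 in CR over RM was also lost in 5 of 9. Among the alpha calls in CR over NR, that of SAG1 was lost in 6 of 9, MF(ALPHA)1 in 2 and MF(ALPHA)2 in 3. The call of STE3 in RM over NR was lost in 8 of 9. The part of these differences in the results below was not tested.

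**Figure D1:**
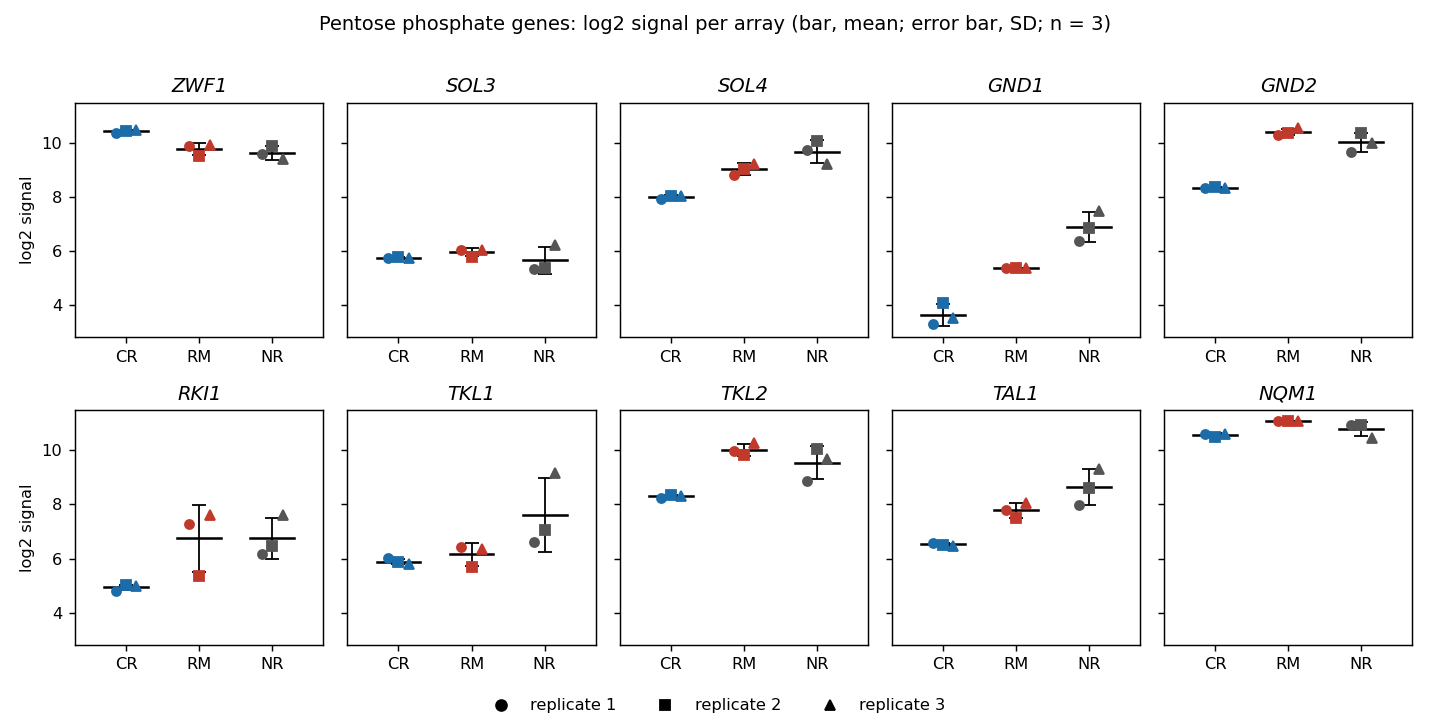
Log2 signal of the 10 pentose phosphate genes on each of the 9 arrays (y axis, log2 signal; x axis, CR, RM and NR), with points for replicates, a bar for the mean and an error bar for the SD of 3 arrays. ZWF1 is highest in CR, GND1 falls to between 3.29 and 4.09 in CR, and NR replicate 3 lies far above the other NR arrays for TKL1.

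In 0.5% glucose most transcripts of the pathway were lower than in 2% glucose, while that of its first enzyme was higher. In CR against NR, 7 of the 10 genes fell and 1 rose by the limma call, where 33.6% of all genes were called lower, 35.3% higher and 68.9% in either direction. The median log2 difference of the 10 was -1.67, against 0.02 over all genes. The 7 members that fell did so at least 2-fold, where 37.7% of all genes were called at 2-fold or more in either direction. Without NR replicate 3 the fall of TKL1 was 1.94-fold. The authors' deposited table, with its own p-value under 0.05 and at least 2-fold, held 5 of the members and 36.5% of all genes. With NR replicate 3 left out, 9 members were called (2 higher and 7 lower), against 70.6% of all genes. The arrays of CR and NR did not overlap for 8 of the 10 genes, as was also true of 75.5% of all genes.

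ZWF1 (YNL241C) encodes glucose 6-phosphate dehydrogenase, which catalyses the first and committed step and makes NADPH. ZWF1 read 10.37, 10.45 and 10.45 in CR, 9.86, 9.51 and 9.92 in RM, and 9.58, 9.89 and 9.39 in NR. Every CR array lay above every array of the other groups, and the RM and NR arrays overlapped. The transcript rose 1.75-fold in CR over NR (log2 difference 0.81, interval 0.45 to 1.17, limma adjusted p = 0.00152) and 1.58-fold in CR over RM (limma adjusted p = 0.00614). Both calls were kept whichever of the 9 arrays was left out. RM over NR had a log2 difference of 0.15 with an interval of -0.21 to 0.51 and was not called. ZWF1 was the only member called higher in CR, in both comparisons, with all 9 arrays.

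The second step, hydrolysis of 6-phosphogluconolactone, is carried out by SOL3 and SOL4. SOL3 (YHR163W), the major form, read 5.74, 5.77 and 5.72 in CR, 6.05, 5.79 and 6.04 in RM, and 5.35, 5.37 and 6.23 in NR. The NR arrays lay on both sides of the CR and RM arrays. With all 9 arrays none of the 3 comparisons called SOL3, and CR over NR had a log2 difference of 0.10 with an interval of -0.40 to 0.60. Without NR replicate 3, the one high NR array, SOL3 was called higher than NR in CR (log2 difference 0.39, limma adjusted p = 0.0112) and in RM (0.60, adjusted p = 0.00391). SOL4 (YGR248W), the minor form, ran the other way, with 7.93, 8.03 and 8.03 in CR, 8.79, 9.03 and 9.22 in RM, and 9.71, 10.05 and 9.22 in NR. CR lay below both other groups, and the RM and NR ranges met at 9.22. SOL4 fell 3.17-fold in CR against NR (interval -2.12 to -1.20 on the log2 scale, limma adjusted p = 8.11e-05) and 2.02-fold in CR against RM (limma adjusted p = 0.00222). In RM against NR it fell 1.57-fold with a limma adjusted p of 0.0357, a call lost in 7 of the 9 fits that left out 1 array and kept without RM replicate 3 or NR replicate 3. Over the 9 fits its adjusted p ran between 0.00344 and 0.121. The losses of the call without a CR array left the difference at -0.65 on the log2 scale.

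GND1 and GND2 encode 6-phosphogluconate dehydrogenase, the second NADPH-forming step. GND1 (YHR183W), the major form, had the largest fall among the 10 members in CR against NR. GND1 read 3.29, 4.09 and 3.52 in CR, 5.36, 5.37 and 5.36 in RM, and 6.35, 6.83 and 7.48 in NR. The groups formed 3 separate steps, with no overlap between any of them. GND1 fell 9.56-fold in CR against NR (log2 difference -3.26, interval -3.89 to -2.62, limma adjusted p = 1.08e-05), 2.88-fold in RM against NR (interval -2.16 to -0.89, adjusted p = 0.00448) and 3.32-fold in CR against RM (adjusted p = 0.000664). The falls against NR with NR replicate 3 left out were 7.79-fold in CR and 2.35-fold in RM, both still called. Its mean signal over the 9 arrays lay within the dimmest 25% of all genes, and how far its CR values lay above background is unknown.

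GND2 (YGR256W), the minor form, read 8.31, 8.37 and 8.33 in CR, 10.29, 10.36 and 10.53 in RM, and 9.67, 10.37 and 10.001 in NR. Only CR was apart from the rest, since RM and NR overlapped. GND2 fell 3.20-fold in CR against NR (interval -2.06 to -1.29, limma adjusted p = 2.76e-05) and 4.17-fold in CR against RM (limma adjusted p = 1.40e-05). RM over NR had a log2 difference of 0.38, with an interval of -0.00 to 0.77, and was not called at an adjusted p of 0.108; without NR replicate 2, the highest NR array, the difference was 0.56 and the adjusted p 0.0235, and without NR replicate 1, the lowest, they were 0.21 and 0.236.

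RKI1 (YOR095C) encodes ribose 5-phosphate isomerase, which makes the ribose 5-phosphate used for nucleotides. RKI1 read 4.82, 5.01 and 4.97 in CR, 7.26, 5.35 and 7.62 in RM, and 6.16, 6.45 and 7.61 in NR. CR was below both other groups, and RM replicate 2 was the lowest array outside CR. RKI1 fell 3.51-fold in CR against NR (limma adjusted p = 0.0159) and 3.51-fold in CR against RM (adjusted p = 0.0197), with wide intervals of -3.06 to -0.56 in both. Without NR replicate 3 the fall against NR was 2.60-fold with an adjusted p of 0.0502. In CR against RM the call was lost without CR replicate 1, RM replicate 1 or RM replicate 3, with a highest adjusted p of 0.0778. Without RM replicate 2 the log2 difference in that comparison was -2.51, against -1.81 with all arrays. RM over NR was -0.00 with an interval of -1.25 to 1.25, which includes differences of 2-fold in either direction.

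Transketolase moves carbon units between sugar phosphates and exists as TKL1 and TKL2. TKL1 (YPR074C), the major form, read 6.01, 5.86 and 5.80 in CR, 6.43, 5.67 and 6.35 in RM, and 6.63, 7.06 and 9.17 in NR. NR replicate 3 lay 2.33 above the mean of the other NR arrays, a deviation at the 99.6th percentile of all genes, and CR and RM overlapped. TKL1 fell 3.32-fold in CR against NR (interval -2.97 to -0.49, limma adjusted p = 0.0186), and 1.94-fold without NR replicate 3 (adjusted p = 0.00510). RM against NR differed by -1.47 on the log2 scale and was not called (limma adjusted p = 0.0625), although the 2 groups did not overlap. Without NR replicate 3 it was -0.69 and called at an adjusted p of 0.0436, and without NR replicate 1 it was -1.96 at 0.0171. CR against RM differed by -0.26, with an interval of -1.50 to 0.97.

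TKL2 (YBR117C), the minor form, read 8.25, 8.34 and 8.31 in CR, 9.96, 9.82 and 10.27 in RM, and 8.86, 10.06 and 9.67 in NR. CR was the low group again, and the RM arrays lay within or just above the NR range. TKL2 fell 2.34-fold in CR against NR (limma adjusted p = 0.00253) and 3.28-fold in CR against RM (limma adjusted p = 0.000497). In RM over NR its difference of 0.49 had an interval of -0.11 to 1.08 and was not called, except without NR replicate 2, where it was 0.75 at an adjusted p of 0.0479. Leaving out NR replicate 1, the lowest NR array, gave 0.15 at an adjusted p of 0.468.

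TAL1 and NQM1 encode transaldolase, which also moves carbon units and joins the pathway to glycolysis. TAL1 (YLR354C), the major form, read 6.58, 6.52 and 6.47 in CR, 7.80, 7.51 and 8.03 in RM, and 7.99, 8.61 and 9.31 in NR. RM lay between CR and NR, with a slight overlap between RM and NR. TAL1 fell 4.33-fold in CR against NR (interval -2.76 to -1.47, limma adjusted p = 0.000152) and 2.39-fold in CR against RM (adjusted p = 0.00445). Its fall of 1.81-fold in RM against NR had a limma adjusted p of 0.0434 and was lost in 8 of the 9 fits that left out 1 array, all but the one without NR replicate 1. It was 1.43-fold without NR replicate 3, with an adjusted p of 0.0731, and the highest adjusted p over the 9 fits was 0.137.

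NQM1 (YGR043C), the minor form, moved least among the 4 minor isozymes. NQM1 read 10.60, 10.50 and 10.59 in CR, 11.07, 11.07 and 11.07 in RM, and 10.92, 10.92 and 10.47 in NR. The CR arrays lay below RM and overlapped NR only through NR replicate 3. NQM1 fell 1.42-fold in CR against RM (interval -0.82 to -0.20, limma adjusted p = 0.0110). CR against NR differed by -0.21 and was not called, but without NR replicate 3 it was -0.36 at a limma adjusted p of 0.00709. RM over NR differed by 0.30, with non-overlapping arrays, an interval of -0.01 to 0.62 and no call.

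**Figure D2:**
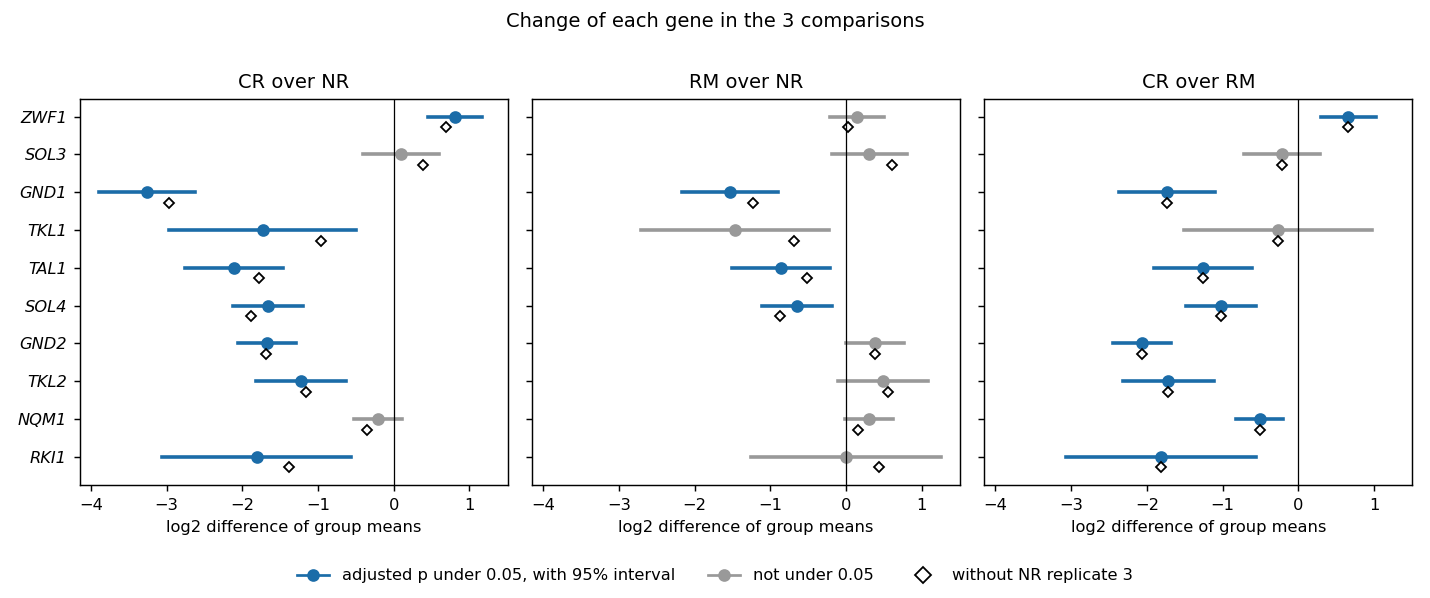
Log2 difference of group means (x axis) for the 10 genes (y axis) for CR over NR, RM against NR and CR against RM, with 95% intervals from the fit to all 9 arrays; blue marks an adjusted p under 0.05, grey the rest, and open diamonds the value without NR replicate 3. In RM over NR the intervals of GND1, TAL1 and SOL4 are the called ones, and TKL1 moves from -1.47 to -0.69 when NR replicate 3 is left out.

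In rapamycin most of the pathway was not called against the same NR arrays that CR was set against. In RM against NR, 3 of the 10 genes fell (GND1, TAL1 and SOL4) and none rose, where 19.4% of all genes were called lower, 17.6% higher and 37.0% in either direction. The share of members called is near that of all genes. The median log2 difference of the 10 was 0.07, against -0.05 over all genes, and 3 of the 10 had arrays that did not overlap, against 43.5% of all genes. Of the 3 falls, GND1 alone reached 2-fold, where 8.65% of all genes were called at 2-fold or more in either direction. GND1 alone kept its call whichever array was left out. GND1 was also the 1 member in the authors' deposited table at 2-fold and p-value under 0.05, which held 7.69% of all genes. With NR replicate 3 left out, 4 members were called, 3 lower (GND1, SOL4 and TKL1) and 1 higher (SOL3), against 38.1% of all genes.

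The direct comparison of the treatments shares its arrays with both comparisons above. In CR against RM, 7 of the 10 genes fell and 1 rose, where 26.4% of all genes were called lower, 29.7% higher and 56.1% in either direction. The median of the 10 was -1.14, against 0.00 over all genes, and 9 of the 10 had arrays that did not overlap, against 75.9% of all genes. All 4 minor isozymes fell in CR against RM, and of the major ones GND1 and TAL1 fell. SOL3 and TKL1 were the members not called, with differences of -0.21 and -0.26. A fall or rise of at least 2-fold was called for 6 members and 25.9% of all genes, and the authors' deposited table at 2-fold and p-value under 0.05 held 5 members and 24.7% of all genes. Leaving out NR replicate 3, which enters this comparison through the shared estimate of spread alone, gave 8 members and 66.6% of all genes.

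The major and minor isozymes were compared within each array, as the log2 signal of the minor form minus that of the major form. Both forms of a pair are read by different probe sets, so that the level of this difference has no meaning and only its change between groups is read. Cross-hybridisation between the paralogues was not tested. The exact permutation test over 3 against 3 arrays, two-sided, cannot give a p below 0.1, and over the 4 pairs and 3 comparisons the smallest adjusted p was 0.133, so no change of an isozyme ratio could pass 0.05 in this test. The sizes and the overlap of arrays are therefore given as values.

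For 6-phosphogluconate dehydrogenase, GND2 minus GND1 was 5.02, 4.28 and 4.81 in CR, 4.93, 5.00 and 5.17 in RM, and 3.31, 3.54 and 2.52 in NR. Every CR and RM array lay above every NR array, and CR and RM overlapped. The ratio of GND2 to GND1 was 2.99-fold higher in CR than NR and 3.75-fold higher in RM than NR (exact permutation p = 0.1 for each). CR over RM differed by -0.33 (exact permutation p = 0.3). In CR both forms were called lower than in NR, with differences of -3.26 for GND1 and -1.68 for GND2, and in RM these were -1.53 and 0.38, with GND1 called and GND2 not.

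For transaldolase, NQM1 minus TAL1 was 4.02, 3.98 and 4.12 in CR, 3.27, 3.57 and 3.03 in RM, and 2.93, 2.31 and 1.16 in NR. The 3 groups did not overlap, in the order CR, RM, NR from high to low. The difference was 1.91 in CR over NR and 1.16 in RM over NR (exact permutation p = 0.1 for each), and 1.42 and 0.67 without NR replicate 3.

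For transketolase, TKL2 minus TKL1 was 2.24, 2.49 and 2.51 in CR, 3.53, 4.14 and 3.92 in RM, and 2.23, 3.0 and 0.49 in NR. RM lay above both other groups, while CR lay inside the NR range. RM over NR was 1.95 (exact permutation p = 0.1), and 1.25 without NR replicate 3. CR over NR was 0.50 (exact permutation p = 0.7), and its sign turned to -0.20 without NR replicate 3.

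In the lactonase pair the minor form was lower relative to the major one. SOL4 minus SOL3 was 2.19, 2.26 and 2.31 in CR, 2.74, 3.23 and 3.19 in RM, and 4.36, 4.69 and 2.98 in NR. CR was below both other groups, and RM overlapped NR only through NR replicate 3. The difference was -1.76 in CR over NR (exact permutation p = 0.1) and -0.96 in RM over NR (exact permutation p = 0.3), and -2.27 and -1.47 without NR replicate 3. The sign in CR over NR was thus negative for this pair and positive for the GND and transaldolase pairs, with arrays that did not overlap in each.

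**Figure D3:**
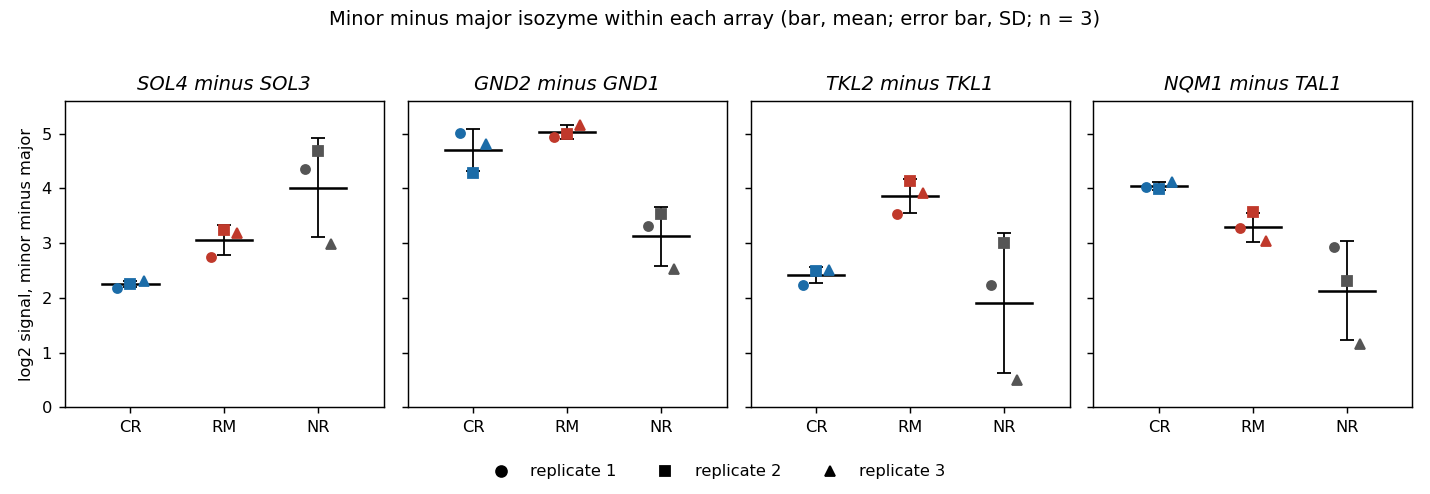
Log2 signal of the minor isozyme minus that of the major isozyme within each array (y axis) for 4 pairs, in CR, RM and NR (x axis), with points for replicates, a bar for the mean and an error bar for the SD of 3 arrays. GND2 minus GND1 and NQM1 minus TAL1 are higher in CR and RM than in NR on every array, SOL4 minus SOL3 is lowest in CR, and NR replicate 3 is the lowest NR array in all 4 pairs.

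Relative to the other NR arrays, the major and minor isozymes differed in NR replicate 3. It lay above the mean of the other NR arrays for all 4 major forms, by 0.88 for SOL3, 0.89 for GND1, 2.33 for TKL1 and 1.01 for TAL1. Among the minor forms it lay 0.21 above for TKL2 and below for SOL4 (-0.66), GND2 (-0.02) and NQM1 (-0.45). ZWF1 was at -0.35 and RKI1 at 1.30. NR replicates 1 and 2 themselves differed by 0.70 for GND2 and 1.20 for TKL2, more than NR replicate 3 differed from their mean.

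By branch, the 5 oxidative genes had 1 called higher and 3 lower in CR over NR (median -1.66), 0 higher and 2 lower for RM against NR (median 0.15), and 1 higher and 3 lower for CR against RM (median -1.02). The 5 non-oxidative genes had 0 higher and 4 lower in CR over NR (median -1.73), 0 higher and 1 lower in RM against NR (median -0.00), and 0 higher and 4 lower in CR against RM (median -1.26). Over all genes, 35.3% were called higher and 33.6% lower in CR over NR, 17.6% and 19.4% in RM over NR, and 29.7% and 26.4% in CR over RM; the branches were not tested against these shares or against each other. On the RefSeq gene order (assembly R64), SOL3 and GND1 lie on one chromosome with 20 protein-coding genes between them, and SOL4 and GND2 lie on another with 7 between them. In RM over NR, GND1 was called lower and SOL3, on the same chromosome, was not called. SOL4 was called lower and GND2, on the chromosome of SOL4, was not. These differences between genes of one chromosome were not tested.

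The genes whose values ran most like those of GND1 over the 9 arrays were TUB3, an alpha-tubulin gene (Pearson r = 0.995), GPM2, a phosphoglycerate mutase homologue (0.993), YLH47 (0.991), HCS1, a DNA helicase gene (0.990), and ALD5, a mitochondrial aldehyde dehydrogenase gene (0.990). TAL1 stood at rank 104 of this order (0.966) and was the member closest to GND1. The genes most like GND2 were YMR027W (0.993), FIR1 (0.991), HYP2, which encodes translation factor eIF5A (0.987), LSM3 (0.987) and SIP18, a gene of desiccation tolerance (0.986). TKL2 stood at rank 39 (0.970) in the order for GND2, and GND1 itself at rank 994 (0.767). ZWF1 correlated with neither form positively (-0.86 with GND1 and -0.80 with GND2). These correlations describe 9 arrays that fall into 3 groups, and carry the differences between those groups.

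Genes that feed, drain, extend or regulate the pathway were called in both directions, and the share called in either direction was near that of all genes. Of 36 further genes in 6 lists (other pentose phosphate enzymes, PRPP synthases, erythrose 4-phosphate users, other NADPH sources, NADPH users and regulators), 9 rose and 17 fell in CR over NR (median -0.32), 6 rose and 9 fell in RM against NR (median -0.05), and 6 rose and 15 fell in CR against RM (median -0.36). The genes not called numbered 10, 21 and 15, and over all genes 68.9%, 37.0% and 56.1% were called in these comparisons. By direction, more of the 36 fell than rose in each comparison with all 9 arrays. Over all genes, 35.3% were called higher and 33.6% lower in CR over NR, 17.6% and 19.4% in RM over NR, and 29.7% and 26.4% in CR over RM. The 36 were not tested against these shares. Leaving out NR replicate 3, the genes that rose and fell numbered 9 and 15, 7 and 6, and 7 and 19. Of all 5667 genes these counts were 2050 and 1950, 1018 and 1142, and 1950 and 1826. The genes named below with a fall or rise kept that call whichever of the 9 arrays was left out, unless an exception is given.

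Among 9 other enzymes of pentose phosphate and neighbouring steps, 1 rose and 4 fell in CR over NR, 1 rose and 3 fell in RM against NR, and 2 rose and 4 fell in CR against RM. All 4 calls of RM against NR (SOL1, SOL2, PGI1 and PHO13) were lost without CR replicate 1, and each was lost in 7 or 8 of the 9 fits that left out 1 array. PGI1, phosphoglucose isomerase, which competes with Zwf1 for glucose 6-phosphate, read 7.94, 8.09 and 7.96 in CR, 10.64, 10.65 and 10.79 in RM, and 11.05, 10.93 and 11.51 in NR. CR was far below both other groups. PGI1 fell 8.96-fold in CR against NR (limma adjusted p = 8.60e-07), whereas the ZWF1 transcript rose. SHB17, the sedoheptulose bisphosphatase of riboneogenesis, fell 2.34-fold in CR against NR (limma adjusted p = 0.000416), and 1.96-fold without NR replicate 3. PHO13, a phosphatase that clears side products of sugar phosphate metabolism, fell 5.72-fold (limma adjusted p = 0.00264), with log2 differences of -3.05 to -1.72 over the fits that left out 1 array; the value nearest 0 was without NR replicate 3. SOL2, a lactonase-like gene whose product is not known to act in the pathway, rose 2.43-fold in CR over NR. RPE1, the epimerase that makes xylulose 5-phosphate for transketolase, was called in no comparison with all 9 arrays, with differences of -0.03 in CR over NR, -0.49 for RM against NR and 0.46 for CR against RM; the last was called without NR replicate 3 (limma adjusted p = 0.0320).

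Of 5 PRPP synthase genes, which turn ribose 5-phosphate into the precursor of nucleotides, 1 rose and 3 fell in CR over NR, 1 rose and 1 fell in RM against NR, and 0 rose and 3 fell in CR against RM. PRS4 fell 3.47-fold in CR against NR (limma adjusted p = 0.000510), and PRS2 rose 1.68-fold (adjusted p = 0.00458). Of the 2 genes for the enzymes that use erythrose 4-phosphate to open aromatic amino acid synthesis, ARO4 fell 4.73-fold in CR against NR (limma adjusted p = 0.000749). In RM it fell 2.89-fold (adjusted p = 0.0168), a call lost without RM replicate 2 (adjusted p = 0.0654). ARO3 was called in none of the comparisons.

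Other sources of NADPH were called in both directions in CR over NR, as were all genes (35.3% higher and 33.6% lower). Of 8 genes for such sources, 2 rose and 4 fell in CR over NR, 1 rose and 1 fell in RM against NR, and 1 rose and 3 fell in CR against RM. Over all genes 68.9%, 37.0% and 56.1% were called in these comparisons, and the 8 were not tested against these shares. ALD6, the cytosolic acetaldehyde dehydrogenase that forms NADPH with acetate, read 5.50, 5.52 and 5.35 in CR, 10.01, 9.13 and 10.22 in RM, and 10.35, 10.51 and 11.42 in NR. CR stood far below every other array, and RM lay below NR. In RM against NR, ALD6 differed by -0.97 (limma adjusted p = 0.0426), a call lost in 7 of the 9 fits that left out 1 array. It was 39.4-fold lower in CR than NR (limma adjusted p = 2.05e-06). IDP2, the cytosolic NADP-dependent isocitrate dehydrogenase, fell 3.83-fold in CR against NR (limma adjusted p = 0.000737). Of the 3 kinase genes for making NADP or NADPH from NAD or NADH, 2 were called higher in CR than NR: UTR1 was 1.70-fold higher in CR and 1.97-fold higher in RM than NR (limma adjusted p = 0.000227 and 0.000603), and the mitochondrial POS5 was 1.74-fold higher in CR (limma adjusted p = 0.00565) and not called in RM over NR (0.25). The other, YEF1, differed by -0.41 in CR over NR and by -0.30 in RM over NR and was not called. Of the other NADP-linked dehydrogenases and malic enzyme in the list, IDP1 fell by 0.69 on the log2 scale in CR against NR (limma adjusted p = 0.0153), and MAE1 differed by -1.14 (limma adjusted p = 0.0334), a call lost without any 1 of the CR arrays. Without NR replicate 3 the differences were -0.42 for IDP1 and -0.53 for MAE1 (limma adjusted p = 0.0102 and 0.00446). IDP3 differed by -0.17 in CR over NR and was not called, but by -0.70 without NR replicate 3 (limma adjusted p = 0.00182).

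Of 6 genes whose enzymes use NADPH, 1 rose and 3 fell in CR over NR, 0 rose and 3 fell in RM against NR, and 1 rose and 3 fell in CR against RM. TRR1, the cytosolic thioredoxin reductase, read 10.69, 10.86 and 10.80 in CR, 7.37, 7.26 and 7.20 in RM, and 7.83, 7.45 and 8.15 in NR. CR was the high group and RM the low one, with no overlap. The difference of -0.53 in RM against NR was called (limma adjusted p = 0.0370), a call lost in 8 of the 9 fits that left out 1 array. TRR1 rose 7.87-fold in CR over NR (limma adjusted p = 1.37e-06). GRE3, an NADPH-dependent aldose reductase, fell 2.16-fold in CR and 1.70-fold in RM against NR (limma adjusted p = 0.000234 and 0.00783). GLR1, glutathione reductase, differed by -0.27 in CR over NR and was not called. In RM over NR it differed by -0.45 (limma adjusted p = 0.0294), a call lost in 5 of the 9 fits that left out 1 array.

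Of the 6 regulators in the list, 4 were called higher and 2 lower in CR over NR, 3 higher and 0 lower in RM over NR, and 2 higher and 2 lower in CR over RM. Over all genes 68.9%, 37.0% and 56.1% were called in these comparisons, and the regulators were not tested against these shares. YAP1, the oxidative stress activator, read 10.40, 10.30 and 10.38 in CR, 8.66, 8.77 and 8.86 in RM, and 8.91, 8.76 and 8.34 in NR. The CR arrays were apart, and RM and NR overlapped. YAP1 rose 3.23-fold in CR over NR (limma adjusted p = 1.38e-05). STB5, an activator of NADPH-forming genes of this pathway, rose 1.48-fold in CR and 1.60-fold in RM over NR (limma adjusted p = 0.00816 and 0.00961). The general stress activators MSN2 and MSN4 moved in opposite directions in CR over NR: MSN2 rose 3.09-fold and MSN4 was 17.9-fold lower (limma adjusted p = 4.07e-06 and 1.45e-06). GCR1, an activator of glycolytic genes, had log2 differences of -0.36 in CR over NR and 0.41 in RM over NR. Both calls were lost in part of the fits that left out 1 array, 4 of 9 in CR and 7 of 9 in RM. Their highest limma adjusted p-values were 0.0997 and 0.136. In CR over RM the difference was -0.76 (limma adjusted p = 0.00101), a call kept whichever array was left out.

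**Figure D4:**
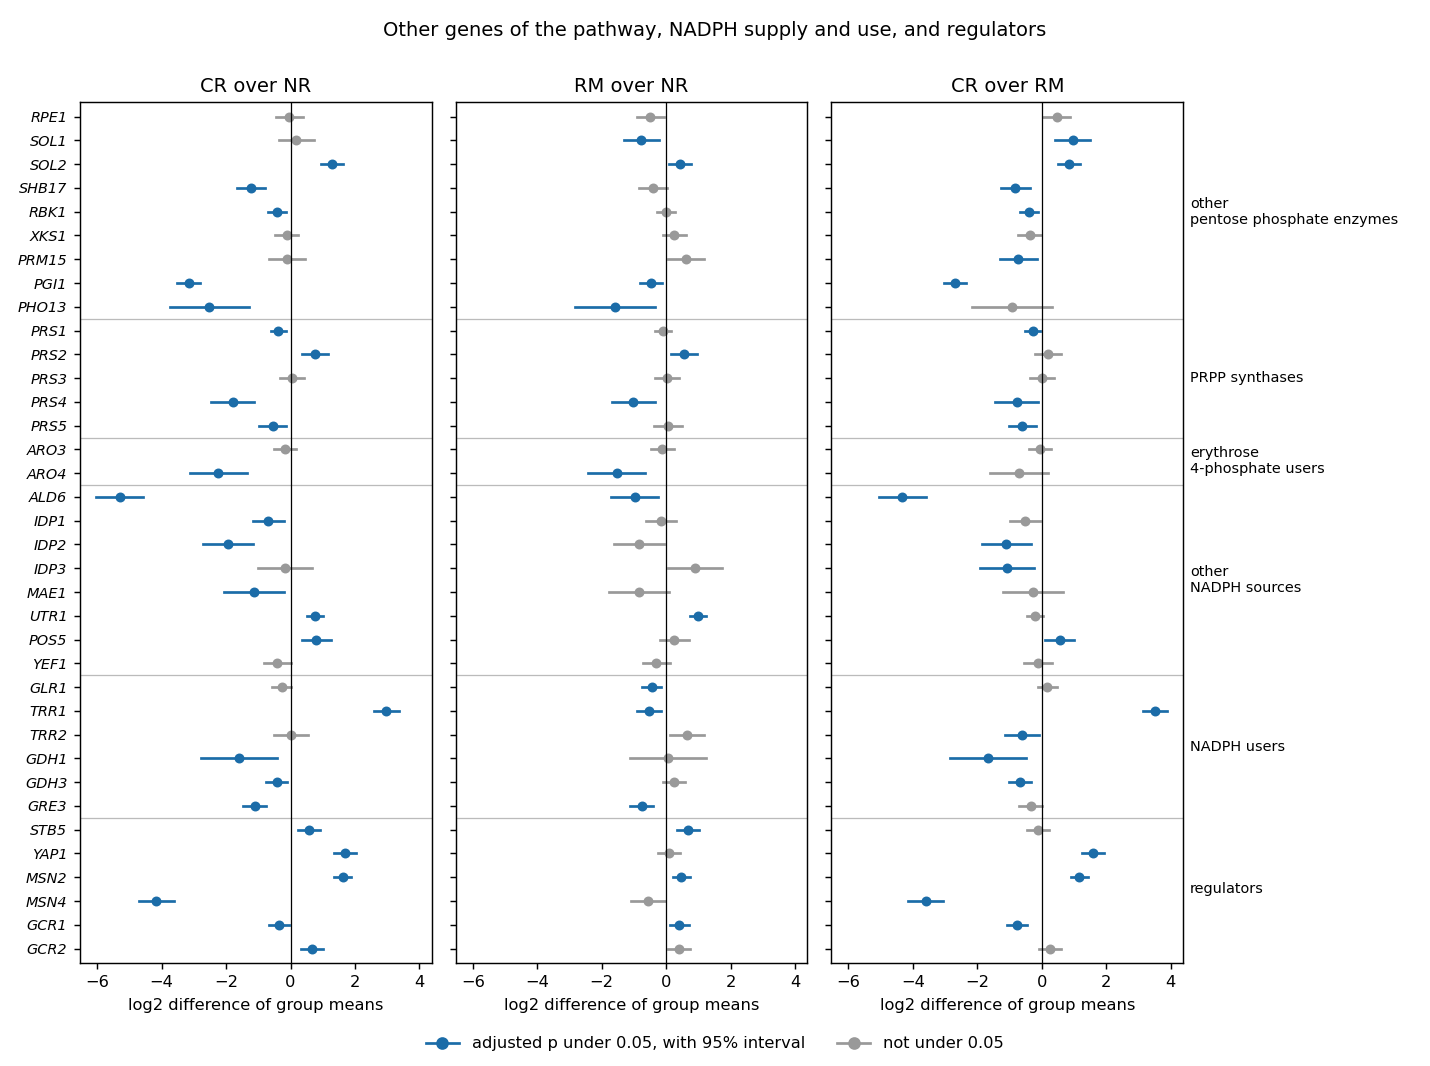
Log2 difference of group means (x axis) of 36 further genes in 6 lists (y axis) for CR over NR, RM against NR and CR against RM, with 95% intervals; blue marks an adjusted p under 0.05 and grey the rest. ALD6, MSN4 and PGI1 lie lowest in CR over NR at -5.30, -4.16 and -3.16, and TRR1 highest at 2.98.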

How the data were processed

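RNA from 9 cultures (3 each of CR, RM and NR) was hybridised by the authors to Affymetrix Yeast 2.0 arrays, per the labels. RMA and Transcriptome Analysis Console 2.0 are listed, per the submitters' processing notes, without their roles. The deposited log2 values per array span 0.51 to 13.48. The authors' deposited fold changes (a signed fold score per gene) equal the differences of group means of these values within 7.14e-10 on the log2 scale. The authors' deposited p-values matched Tukey p-values of these values within 1% for 98.6% of 16466 p-values of 1e-05 or more. No raw scans were used here, so signal over background is unknown, and the number of arrays limits the precision.

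Each of 5667 genes was represented by its first probe set in file order (47 had more than 1). Symbols came from RefSeq R64, in which 5646 matched. One limma 3.58.1 model (R 4.3.3) with a mean per group was fitted to all 9 arrays, with Benjamini-Hochberg adjustment over all genes. On simulated data of 5667 genes, 200 were changed by 1 on the log2 scale in CR alone. In CR over NR 76.5% of these were recovered, with 9 false calls among the unchanged genes. The simulated noise had 1 SD per gene for all 3 groups. In the data the median SD was 0.055 in CR and 0.294 in NR, and 3905 genes were called in CR over NR. The simulation therefore gives no error rate for the calls reported here. The named genes are all 10 members, called genes of the lists and the 5 genes most like GND1 and GND2. RPE1, ARO3 and YEF1, not called in the fit to all arrays, are named outside this rule and were chosen after their values were seen, and strain and mating type genes are named as a check of the labels. Members and lists were chosen with earlier results of these data known. Alternatives covered scaling, filter, spread model, groups in the fit, replicate block, probe sets, call rule and each array left out. Sequences were not used here.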

Additional observations from a re-analysis of the deposited data

How the results depend on the processing

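In CR over NR and CR over RM, 8 members were called in each. The authors' deposited table at 2-fold with its p-value under 0.05 called 5 in each, since TKL1 and RKI1 in CR over NR and RKI1 in CR over RM missed the p-value, ZWF1 the fold limit in both and NQM1 the fold limit in CR over RM. Leaving out 1 array gave 8 to 9 members in CR over NR and 7 to 8 in CR over RM. The 3 members called in RM over NR were 1 with a 2-fold limit added, 1 in the authors' deposited table at 2-fold, 1 in a fit of the RM and NR arrays alone and 1 to 4 when 1 array was left out. They were 0 with the authors' deposited p-values adjusted across genes (1 at an unadjusted deposited p under 0.05) and 0 in limma with 1 weight per group (4 at an unadjusted p under 0.05), the last added after the spread by group was seen. GND1 was the member called in RM over NR in each setting but these final ones, where its adjusted p was 0.0522 and 0.104, and the fit without the dimmest 25% of genes, which leaves GND1 out. Over all genes, the 3905, 2099 and 3180 calls (CR against NR, RM against NR, CR against RM) were 2139, 490 and 1469 with the 2-fold limit and 2067, 436 and 1399 in the authors' deposited table at 2-fold. For RM over NR they were also 898 with the deposited p-values adjusted across genes, 921 with the 2 groups alone, 1027 with group weights, 1205 without RM replicate 1 and 1381 without RM replicate 2. Quantile normalizing the values again moved GND2 minus GND1 to 1.19 in CR over NR and -0.71 in CR over RM, against 1.58 and -0.33; the cause was not tested. No called difference of a member changed sign under any setting. Deviations of same-numbered arrays correlated above 0.1 in 1 of 9 pairs, RM and NR replicate 3 at 0.35 (range over the pairs -0.20 to 0.35). Of the 9 arrays, 2 correlated best with their own number. With 3 arrays per group, this check cannot show whether same-numbered cultures were handled together. With the replicate block, 8, 3 and 8 members were called and all genes called were 3878, 1959 and 3123. Leaving out 1 array moved the isozyme differences between these limits for CR over NR, then RM against NR, then CR against RM: -2.27 to -1.42, -1.47 to -0.62 and -0.96 to -0.71 for SOL4 minus SOL3; 1.28 to 1.79, 1.61 to 2.12 and -0.49 to -0.12 for GND2 minus GND1; -0.20 to 1.05, 1.25 to 2.50 and -1.62 to -1.31 for TKL2 minus TKL1; and 1.42 to 2.31, 0.67 to 1.56 and 0.62 to 0.89 for NQM1 minus TAL1.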
